A study of Homo sapiens with 4 samples.

Results

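The CEACAM genes encode cell adhesion molecules of the carcinoembryonic antigen family, and 8 of them were measured in HuCCT1, an established human cholangiocarcinoma (bile duct cancer) cell line. The members were chosen by symbol, as the genes CEACAM1, CEACAM3, CEACAM4, CEACAM5, CEACAM6, CEACAM7, CEACAM8 and CEACAM19, and the family was selected on its log2 levels over the same 4 arrays described here. The 8 genes are 8 of the 18377 genes named on the array, and each was measured by 1 row with 1 gene symbol in the platform annotation. Because the measured values of all 4 arrays chose the family, its values are given as a description, with no test.

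The measurements came from 4 arrays of the Affymetrix Human Gene 1.0 ST type, which summarise probes spread along the exons of a gene. One array each held RNA of untreated cells, of cells with VPA alone, of cells with GEM alone and of cells with both agents (GEM_VPA, called the combination here), and no agent was shared by all 4 groups. VPA and GEM are read with their usual meanings, valproic acid, a histone deacetylase inhibitor, and gemcitabine, a nucleoside analogue that disturbs DNA synthesis. No dose, exposure time or culture batch was given in the labels, and with 1 array per condition no value has a replicate error.

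Background on the family helps to read the values. CEACAM proteins are built from immunoglobulin-like domains and bind each other across cell contacts. CEACAM1, CEACAM3, CEACAM4 and CEACAM19 cross the membrane, whereas CEACAM5, CEACAM6, CEACAM7 and CEACAM8 are held at the surface by a glycosylphosphatidylinositol (GPI) anchor. CEACAM1 carries inhibitory tyrosine motifs in its long cytoplasmic tail. It is made by many epithelia, by hepatocytes on the side that faces the bile canaliculi, and by activated leukocytes. CEACAM5 is the carcinoembryonic antigen itself, a serum marker of gastrointestinal tumours, and CEACAM6 is made by epithelia and granulocytes. CEACAM7 belongs to the colon epithelium. CEACAM3, CEACAM4 and CEACAM8 are chiefly granulocyte genes, and CEACAM19 is a less studied relative.

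The stretches of 250 bases before the start of CEACAM1, CEACAM6 and CEACAM8 are shown because CEACAM1 was the only member with a 2-fold difference, CEACAM6 held the same interferon motif core, and CEACAM8 is its nearest measured neighbour on the chromosome. They are RefSeq sequences of build GRCh38.p14 on chromosome 19, 5′ to 3′ on the strand of each gene: chr19:42528482-42528731 on the minus strand, chr19:41755280-41755529 on the plus strand and chr19:42594925-42595174 on the minus strand. Capitals mark matches to the motifs searched.
CEACAM1: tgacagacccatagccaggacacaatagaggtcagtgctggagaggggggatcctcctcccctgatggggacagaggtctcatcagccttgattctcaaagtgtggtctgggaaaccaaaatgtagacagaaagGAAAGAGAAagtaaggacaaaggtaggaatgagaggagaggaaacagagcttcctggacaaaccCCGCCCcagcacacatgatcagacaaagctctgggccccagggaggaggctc
CEACAM6: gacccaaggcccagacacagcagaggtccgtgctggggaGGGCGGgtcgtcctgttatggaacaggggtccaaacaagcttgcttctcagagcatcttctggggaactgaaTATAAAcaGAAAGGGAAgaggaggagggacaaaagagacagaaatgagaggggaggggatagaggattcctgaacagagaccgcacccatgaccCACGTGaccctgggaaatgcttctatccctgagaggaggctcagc
CEACAM8: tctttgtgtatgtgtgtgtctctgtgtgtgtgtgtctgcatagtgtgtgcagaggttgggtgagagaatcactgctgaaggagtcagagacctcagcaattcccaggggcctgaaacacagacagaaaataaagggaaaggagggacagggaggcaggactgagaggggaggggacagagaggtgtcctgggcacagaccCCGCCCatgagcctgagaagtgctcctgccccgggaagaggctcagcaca

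A window of 250 bases before and 50 after the gene start was found for 7 members, and not for CEACAM19. Both strands were searched for 4 motifs, which could overlap. The interferon element core GAAANNGAA lay in the windows of CEACAM1, at position -116 from the gene start, and CEACAM6, at -131, and in 8.1% of all 35116 promoter windows. The GC box GGGCGG, read by Sp1-type factors, lay in CEACAM1 at -52, CEACAM8 at -50 and CEACAM6 at -211, and in 45.0% of all windows. The E-box CACGTG, read by USF factors, lay in CEACAM5 at -46 and CEACAM6 at -45, and in 7.3% of windows. The TATA box TATAAA lay only in CEACAM6 among the 7, at -139, and in 11.5% of windows. The stretches before CEACAM1 and CEACAM7 were identical over 71.9% of their alignment, and CEACAM1 and CEACAM8 over 58.8%. Among all 7 the pairs ranged from 57.0% (CEACAM5 and CEACAM8) to 80.5% (CEACAM5 and CEACAM7). A match is a description of letters and not a site.

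Some facts of the whole series bear on every value. The arrays labelled untreated and combination were close to each other (r = 0.996 over 28869 rows), as were those labelled VPA and GEM (0.996), whereas the other pairs correlated between 0.984 and 0.987. Directions follow the labels as given. A swap of labels between arrays could not be checked from the files, and it could change directions given below. At 2-fold size, the reversal of CEACAM1 would remain after a swap within either close pair, but not after a swap of 1 array across the pairs. After some swaps across the pairs, smaller changes with GEM would still differ in sign. All 7 measured biliary epithelial markers lay at or above the array median on every array, among them KRT7, KRT19 and EPCAM. Of 13 granulocyte and leukocyte markers, 4 or 5 reached the array median on each array. ELANE, PRTN3, AZU1 and SPI1 reached it on all 4, and LYZ on the GEM array only. The others, PTPRC, MPO and CSF3R among them, reached it on none.

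CEACAM1 (Entrez gene 634) stood at a log2 level of 7.86 untreated, 9.90 with VPA, 10.45 with GEM and 7.75 with the combination. The single drug arrays were thus high, and the untreated and combination arrays were low and close to each other. The order was GEM, VPA, untreated, combination. Neighbours in that order differed by 0.54 (GEM and VPA), 2.04 (VPA and untreated) and 0.11 (untreated and combination). For scale, the robust SD of the log2 ratio over all genes was 0.158 between VPA and GEM, 0.264 between VPA and untreated and 0.147 between the combination and untreated. Over genes whose brighter value reached its array median it was wider, at 0.171, 0.370 and 0.1585 in the same order. The untreated and combination values of CEACAM1 lay just under the medians of their arrays (7.87 in both cases), at percentiles 49.9 and 48.0 of the rows. No detection calls were used, so the low values are not shown to be above background and the folds may be understated. In whole-cell RNA, a larger share of cells expressing a gene and more transcript per cell cannot be told apart.

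**Figure D1:**
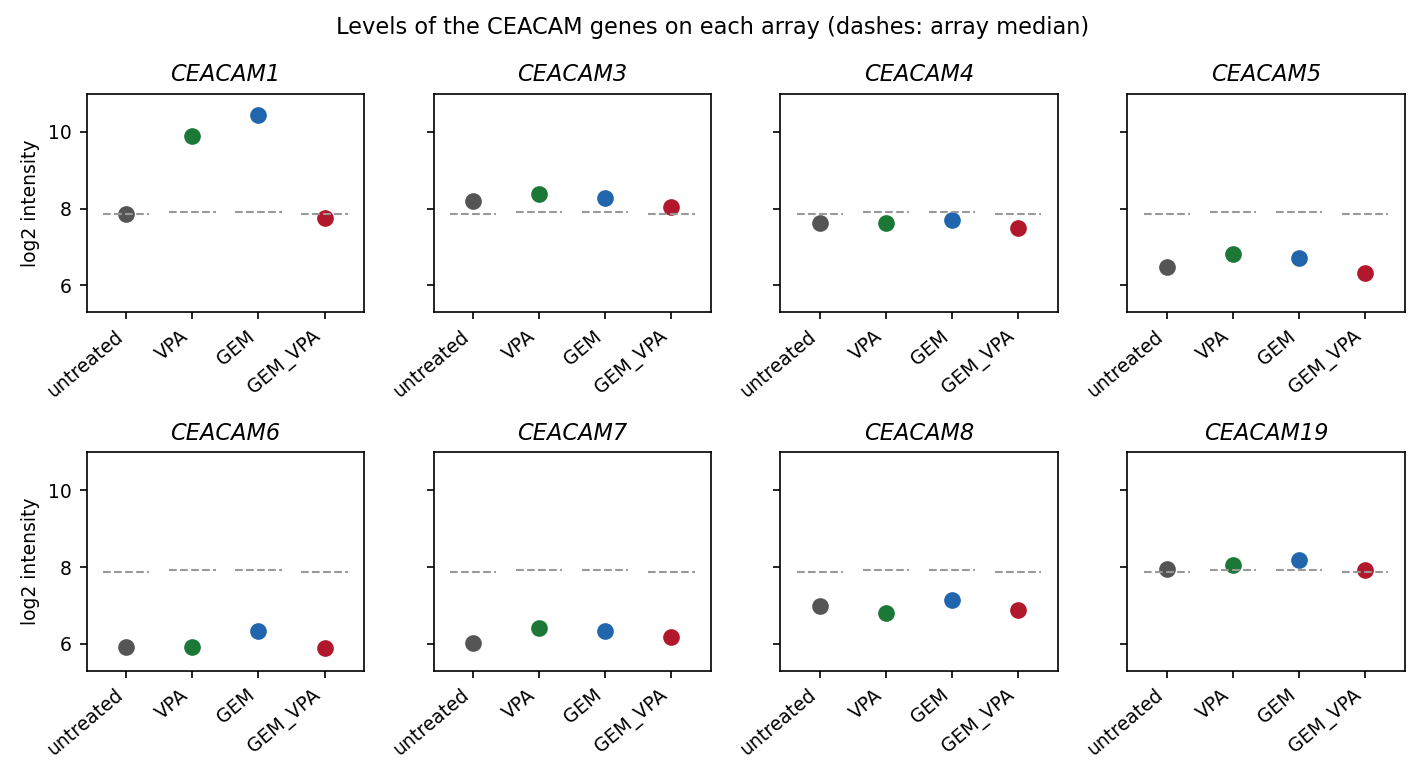
Log2 intensity of each CEACAM gene (1 panel per gene) on the untreated, VPA, GEM and GEM_VPA arrays, 1 point per array, with dashes at the array medians. CEACAM1 stands at 9.90 and 10.45 on the VPA and GEM arrays and at 7.86 and 7.75 on the others, while the other 7 genes span at most 0.51 across the arrays.

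A gene was counted as different at a log2 ratio of 1 or more in either direction, the 2-fold limit of the series' design text, provided that the brighter of both arrays reached its own array median for that gene (a gene at level). With VPA alone, CEACAM1 was 4.12-fold higher than untreated (log2 ratio 2.04), the 20th largest increase (rank 20 of 11611 genes at level). It was the 1 member counted as higher, of 3 at level (CEACAM1, CEACAM3 and CEACAM19), where 1.9% of all genes at level were higher and 2.09% lower. With GEM alone, CEACAM1 was 5.99-fold higher (2.58), which was rank 3 of 11593. Again it was the 1 member counted, of the same 3 at level, against a background of 1.48% higher and 3.01% lower. These comparisons share the untreated array. They also used the values that chose the family, so nothing is read from the members' counts against the background.

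With the combination, CEACAM1 was 1.08-fold lower than untreated (log2 ratio -0.11), and 0 members were counted in either direction, where 0.122% of all genes at level were higher and 0.0261% lower. Against VPA alone, the combination array was 4.45-fold lower for CEACAM1 (-2.15), rank 12 of 11600 decreases. There the background was 1.48% higher and 1.68% lower. Against GEM alone it was 6.48-fold lower (-2.70), rank 4 of 11638, with 3.6% of all genes at level higher and 1.78% lower. CEACAM1 was the 1 member counted as lower in each of these comparisons. Between the single drugs, CEACAM1 was 1.46-fold lower with VPA than with GEM (-0.54), and 0 members were counted, where 0.27% of all genes at level were higher with VPA and 0.0349% lower.

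The change with VPA can be read from 2 pairs of arrays that share no array. CEACAM1 was higher by 2.04 with VPA in the pair without GEM, and fell by 2.70 on the log2 scale in the pair with GEM. The change with GEM was 2.58 in the pair without VPA and -2.15 in the pair with VPA. The departure from additivity, which is the change with VPA beside GEM minus the change with VPA alone, was -4.74, rank 5 of 11808 genes at or above the median on at least 1 array. The median departure over all 18377 genes was -0.01, with a robust SD of 0.466. Of the 464 genes that differed 2-fold with VPA alone, 206 differed the opposite way when VPA was added to GEM and 2 the same way. For GEM these numbers were 249 and 0 of 521. The reversal of CEACAM1 was thus shared with many genes of these arrays.

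**Figure D2:**
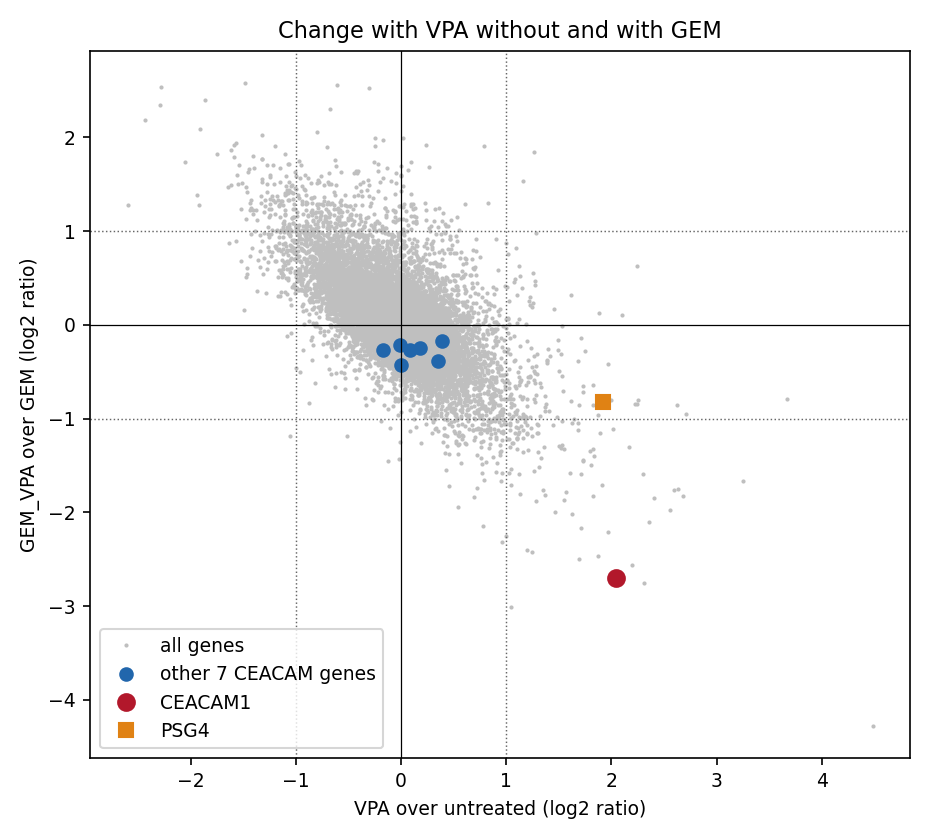
Log2 ratio of VPA over untreated (horizontal) against GEM_VPA over GEM (vertical), 1 grey point per gene for 18377 genes, with dotted lines at the 2-fold limits. CEACAM1 lies at 2.04 and -2.70, PSG4 at 1.92 and -0.83, and the other 7 CEACAM genes lie within 0.43 of 0 on both axes.

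The other transmembrane members spanned less than 0.4 across the arrays. CEACAM3 (Entrez 1084), a phagocytic receptor of granulocytes with an activating tyrosine motif, stood at 8.20 untreated, 8.38 with VPA, 8.29 with GEM and 8.05 with the combination. CEACAM4 (Entrez 1089), a related granulocyte receptor, stood at 7.63, 7.62, 7.71 and 7.50 in the same order, below the median on all 4 arrays. CEACAM19 (Entrez 56971) stood at 7.96, 8.04, 8.19 and 7.92. For each of these genes the combination array was the lowest, and the highest was the VPA array for CEACAM3 and the GEM array for CEACAM4 and CEACAM19.

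The GPI-anchored members lay below the median on all 4 arrays, where RMA values are compressed, so a change in them may be understated. CEACAM5 (Entrez 1048) stood at 6.48 untreated, 6.83 with VPA, 6.71 with GEM and 6.32 with the combination. It was the other member with the widest span, 0.51, between VPA and the combination. CEACAM6 (Entrez 4680) stood at 5.91, 5.91, 6.33 and 5.90 in the same order, so the GEM array was apart from 3 nearly equal arrays, by 0.42 over untreated. CEACAM7 (Entrez 1087) stood at 6.02, 6.41, 6.34 and 6.17, and was the only member that was lowest untreated. CEACAM8 (Entrez 1088), the CD66b marker of granulocytes, stood at 6.99, 6.82, 7.15 and 6.88, and was the only member that was lowest with VPA.

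None of these 7 genes passed the 2-fold limit in any of the 6 comparisons, with or without the level filter. Their largest log2 ratios in size were 0.39 for VPA over untreated (CEACAM7), 0.42 for GEM over untreated (CEACAM6), 0.16 for the combination against untreated (CEACAM5), 0.51 for the combination against VPA (CEACAM5), 0.43 for the combination over GEM (CEACAM6) and 0.42 for VPA over GEM (CEACAM6). All 8 members were above untreated with GEM, with a median log2 ratio of 0.23, where 48.6% of all genes and 55.3% of genes below the level filter were above 0. With VPA, 6 of 8 were above untreated (median 0.13), where 48.1% of all genes and 54.0% of genes below the level filter were above 0. With median-centred arrays that count was 5, since CEACAM6 (0.003) turned to -0.05. All 8 were lower on the combination array than with GEM alone (median -0.27), as were most genes below the level filter, of which 36.8% were above 0. The combination array was the lowest for 6 of 8 members, and for 29.5% of all genes and 35.3% of the 6569 genes below the median on all arrays. The departure from additivity was below 0 for all 8, from -0.74 for CEACAM5 to -0.10 for CEACAM8 among the other 7, and for 50.9% of all genes. Its share for genes below the level filter is not given here. In such genes both parts of the departure leaned to its negative side. Above 0 were 54.0% for VPA over untreated and 36.8% for the combination over GEM. For CEACAM8 the departure became 0.0007 with centred arrays.

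A row on this array summarises all transcripts its probes match. The annotation gives 6 RefSeq transcripts to the CEACAM1 row and 1 or 2 to each other member, so the long-tailed and short-tailed forms of CEACAM1, which differ in signalling, were not told apart. The genes of the family are close in sequence, and probes of one could bind transcripts of another. The probe sequences were not used here, and no row with several symbols included a CEACAM gene.

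Other genes of the carcinoembryonic antigen family were measured as well, 10 of 14 listed, including the pregnancy-specific glycoproteins (PSG), secreted relatives made chiefly by the placenta. At most 3 of the 10 were at level in any comparison, so most could not be counted. PSG4 was the only one counted as different. It stood at 7.33 untreated, 9.24 with VPA, 8.06 with GEM and 7.24 with the combination, so VPA was the high array and GEM was between. Its log2 ratio was 1.92 with VPA against untreated (2 at level, 1.9% of all genes at level higher). It was -2.01 with the combination against VPA (2 at level, 1.68% of all lower) and 1.18 with VPA against GEM (3 at level, 0.27% of all higher). CEACAM1 was instead lower with VPA than with GEM. Below the limit, PSG9 stood at 0.58 and 0.28, PSG2 at 0.54 and 0.28, PSG6 at 0.52 and 0.72 and PSG3 at 0.54 and 0.54 for VPA and GEM over untreated, while PSG1 and PSG11 were within 0.07 of untreated. The 2 rows that the annotation gives to 11 PSG genes together were higher with VPA by 1.26 and 1.14 and with GEM by 0.83 and 0.76. PSG genes are near copies, so the gene behind each row is uncertain, and with the shared rows averaged in, PSG4 stood at 0.66 for VPA over GEM. CEACAM16, CEACAM20 and CEACAM21 lay between -0.27 and 0.25 for both drugs over untreated.

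The members lie on chromosome 19 in separate groups. In RefSeq order of the measured protein-coding genes, CEACAM4, CEACAM7, CEACAM5, CEACAM6 and CEACAM3 follow each other, 25 to 21 genes before CEACAM1, CEACAM8 and then the PSG genes directly follow CEACAM1, and CEACAM19 lies 45 genes after it. The 10 measured genes on each side of CEACAM1 were examined after the values of the members were known. Of these 20 genes, 10 were at level for VPA over untreated and 1, PSG4, was counted as higher, where 1.9% of all genes at level were. For GEM over untreated, 0 of 10 at level were counted, where 1.48% of all genes at level were higher and 3.01% lower. The median log2 ratio of the 20 was 0.02 with VPA and 0.04 with GEM, beside -0.01 and -0.01 over all genes. CXCL17, a mucosal chemokine and the nearest gene on one side, stood at -0.10 and -0.05, and CEACAM8, the nearest on the other, at -0.17 and 0.16. Neither adjacent gene passed the limit in any comparison.

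**Figure D3:**
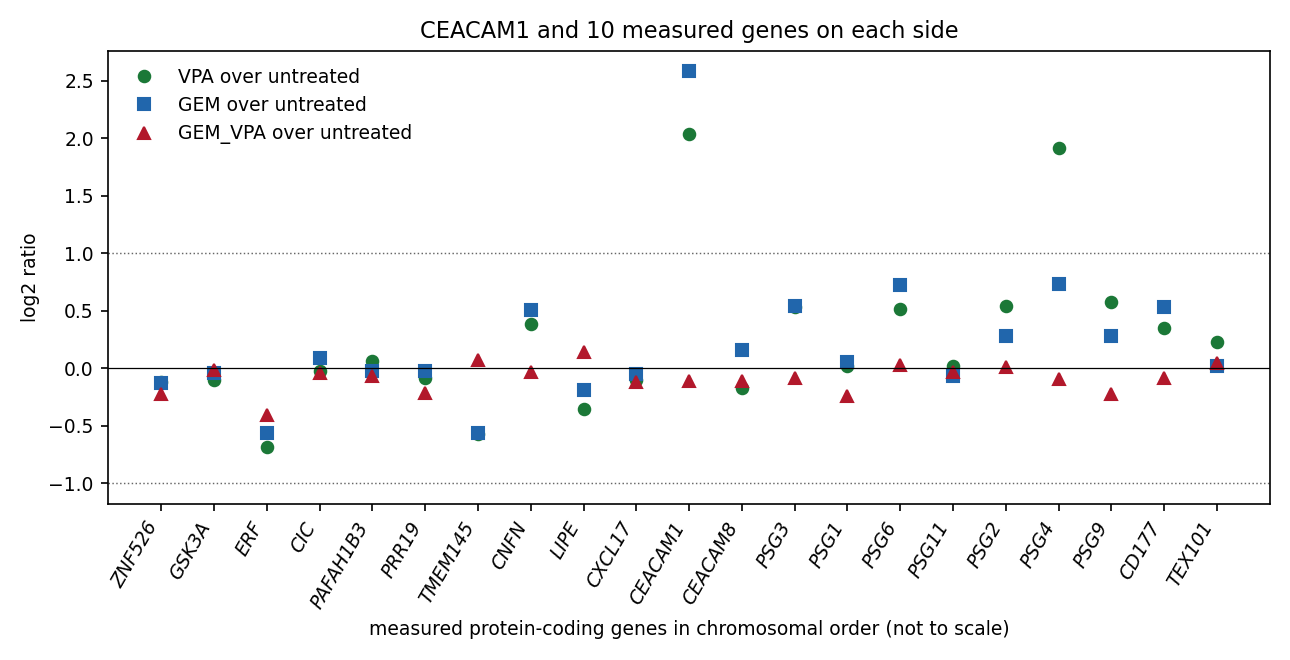
Log2 ratios of VPA, GEM and GEM_VPA over untreated for CEACAM1 and the 10 measured protein-coding genes on each side in chromosomal order, which is not to scale. CEACAM1 stands at 2.04 and 2.58, PSG4 at 1.92 and 0.73, and no other gene passes the dotted 2-fold lines.

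The genes whose profile was nearest to CEACAM1 were found by the Euclidean distance between log2 levels over the 4 arrays, after each gene's mean was taken away, among 11808 genes. The nearest were ARRDC4, an alpha-arrestin (distance 0.198), FXYD3, a regulator of the sodium pump (0.249), TP53INP1, a p53-induced stress protein (0.262), and PTAFR, the receptor of platelet-activating factor (0.330). Then came RASGRP3, a Ras activator, CLTRN, collectrin, GALNT5, an enzyme that starts mucin-type O-glycans, KLK5, a kallikrein-related peptidase, CDKN1A, the CDK inhibitor p21, and ABCA12, a lipid transporter, at 0.492 to 0.706. ARRDC4 stood at 7.97 untreated, 10.29 with VPA, 10.75 with GEM and 8.01 with the combination. CDKN1A stood at 11.17, 12.63, 13.04 and 11.05. The 10 genes were higher than untreated by 1.19 to 2.36 with VPA and by 1.87 to 2.78 with GEM, and were within 0.37 of untreated with the combination. Since the distance chose them on the same 4 arrays, this likeness to CEACAM1 follows from the choice. By Pearson correlation, among 954 genes with a range of at least 1, 3 of these 10 (ARRDC4, FXYD3 and CDKN1A) were among the closest 10, and 54 genes had r of at least 0.99 over the 4 arrays. The 10 genes' own r with CEACAM1 was 0.967 to 1.000. Of 8 with a promoter window, the interferon core was in 1 (RASGRP3), the GC box in 4, the E-box in 2 and the TATA box in 2.

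**Figure D4:**
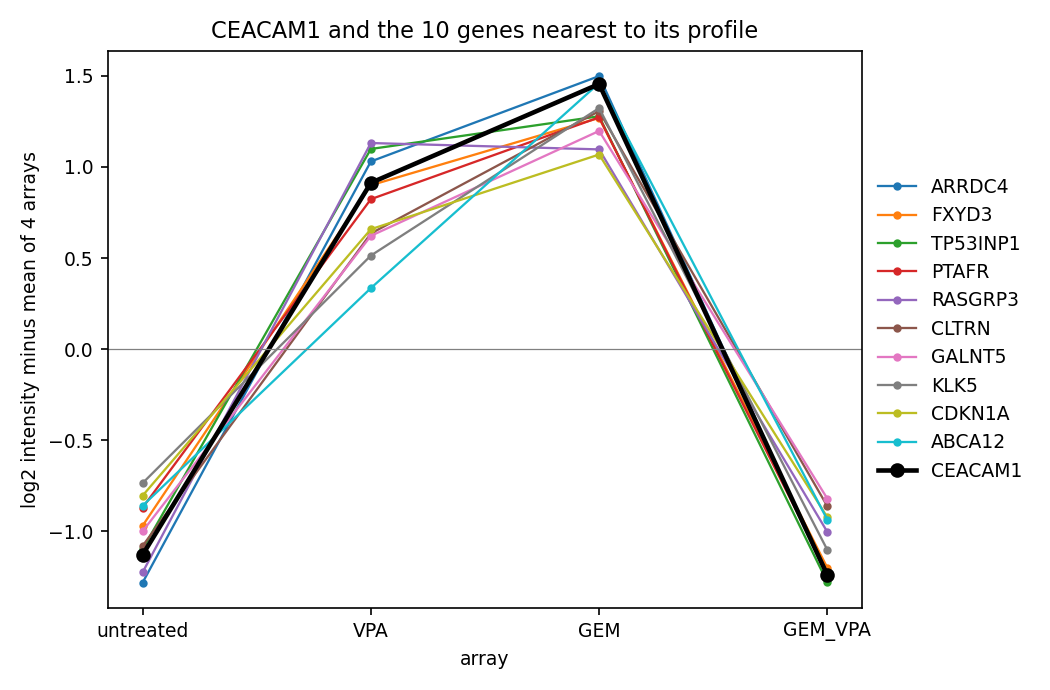
Log2 intensity minus the mean of the 4 arrays (vertical) on each array for CEACAM1 (black) and the 10 genes nearest to it, with lines that only join the points of a gene. Every line is above 0 on the VPA and GEM arrays and below 0 on the untreated and GEM_VPA arrays, with ABCA12 the lowest on the VPA array. The 10 genes were chosen for this likeness on the same arrays.

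Partners of CEACAM1, chiefly of its tail, were listed next, among them phosphatases and kinases the tail binds or restrains and cytoskeletal proteins it touches. Of 10 measured, 9 were at level in each comparison and 0 were counted as different in any of the 6. The share of all genes at level counted in each direction ranged from 0.0261% to 3.6% over these comparisons. PTPN6 (SHP-1), the phosphatase recruited by the inhibitory motifs, stood at 10.19, 10.22, 10.29 and 10.08 in the order untreated, VPA, GEM and combination. PTPN11 (SHP-2) stood at 11.93, 11.62, 11.66 and 12.02, and SRC, the kinase that phosphorylates the tail, at 9.27, 9.32, 9.47 and 9.17. The median of the list was 0.04 with VPA and 0.10 with GEM over untreated. HAVCR2, which encodes TIM-3, a receptor on T cells that CEACAM1 binds, was below the median on all 4 arrays.

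Of 6 measured transcription factors linked to the CEACAM1 promoter, all at level, 0 were counted in any comparison. Beside this, 0.0261% to 3.6% of all genes at level were counted in each direction. IRF1, the interferon-responsive factor, stood at 8.85 untreated, 8.50 with VPA, 8.78 with GEM and 8.51 with the combination, so the untreated and GEM arrays were high and the other arrays low. SP1 was lower on the single drug arrays, at -0.52 with VPA and -0.35 with GEM, as was USF2 at -0.41 and -0.22. USF1 stood at 10.75 untreated, 10.56 with VPA, 10.72 with GEM and 10.45 with the combination, which was its lowest array. SOX9, a biliary transcription factor, stood at 0.64 and 0.67, and TFAP2A at 0.49 and 0.73. These 2 were the members of the list above untreated with either drug.

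The enzymes that build and attach the GPI anchor, on which CEACAM5 to CEACAM8 depend, had medians near 0. Of 27 measured, 26 were at level with each single drug, and 1 was counted as lower with each, where 2.09% (VPA) and 3.01% (GEM) of all genes at level were lower. PIGW, an acyltransferase of anchor synthesis, was at -1.05 with VPA (-0.99 after the columns were quantile normalized again), and PIGX, a subunit of the first mannosyltransferase, at -1.23 with GEM. PIGX and PIGK, the catalytic subunit of the transamidase, were counted as higher on the combination array than with GEM alone, at 1.03 and 1.01, and at 0.98 and 0.95 after quantile normalization. These were 2 of 26 at level, where 3.6% of all genes at level were higher. The list's median was -0.05 with VPA and 0.02 with GEM.

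Other genes for GPI-anchored surface proteins had a median of 0.38 with VPA and 0.25 with GEM over untreated, where the medians over all genes were -0.01 and -0.01. Of 22 measured, 17 were at level, and 3 were counted as higher with each drug and 0 as lower, where 1.9% (VPA) and 1.48% (GEM) of all genes at level were higher. FOLR1, the folate receptor, stood at 8.79, 10.65, 10.01 and 9.20 in the order untreated, VPA, GEM and combination. CD24, a mucin-like adhesion protein, stood at 7.97, 9.71, 8.97 and 8.69. Both were highest with VPA, whereas MSLN, mesothelin, was highest with GEM at 9.27, 10.11, 10.34 and 9.07. CD59, an inhibitor of complement, was at 1.14 with VPA and at 0.98 with GEM, which became 1.05 after quantile normalization. CD24 with GEM was at 1.00 and just missed the limit with centred arrays (0.96) and after quantile normalization (0.997). On the combination array these 4 genes were counted as lower than with VPA, where 1.68% of all genes at level were. With centred arrays CD24 (-0.96) and MSLN (-0.98) were not. MSLN was also counted as lower against GEM (-1.27), where 1.78% of all genes at level were.

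Of 15 measured gut and biliary epithelial surface and differentiation genes, 8 were at level with VPA and 2 were counted as higher than untreated, and 9 were at level with GEM and 1 was counted, where 1.9% (VPA) and 1.48% (GEM) of all genes at level were higher. The medians were 0.05 and 0.15. TSPAN1, a tetraspanin, stood at 10.18, 11.74, 11.71 and 9.93, and KRT20, keratin 20 of gut epithelium, at 7.41, 8.67, 8.39 and 6.84. Both were high on the single drug arrays and lowest with the combination, as CEACAM1 was. KRT20 was at 1.26 with VPA and 0.99 with GEM. TSPAN8, of the same list, was at 1.83 with VPA and 1.37 with GEM. It lay below the median on all 4 arrays and so was not counted. ELF3, an epithelial transcription factor, was counted only for the combination against GEM (-1.03, and -0.98 with centred arrays). It was 1 of 3 counted as lower there, of 9 at level, where 1.78% of all genes at level were lower. CDX1 and CDX2, the intestinal regulators, lay between -0.17 and 0.06 with either drug.

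Markers of cell types were set beside these values. Of 7 biliary epithelial markers, all at level, 6 were above untreated with each drug, EPCAM being the exception. KRT7 was the 1 counted, at 1.97 with VPA and 1.61 with GEM. Of all genes at level, 1.9% (VPA) and 1.48% (GEM) were higher. The summed level of the 7 biliary markers was 15.5 untreated, 15.9 with VPA, 15.9 with GEM and 15.5 with the combination on the log2 scale. The summed level of the 13 granulocyte and leukocyte markers moved less, between 11.1 with the combination and 11.4 with GEM. LYZ, lysozyme, which gland epithelia also make, stood at 7.41, 7.86, 8.40 and 6.69. It was counted as lower with the combination than with GEM (-1.72), the only marker of that list counted. There 5 of the 13 were at level, and 1.78% of all genes at level were lower. The part of these shifts in the CEACAM1 values was not tested. Of 3 hepatocyte markers 1 was at level and 0 were counted, where 0.0261% to 3.6% of all genes at level were counted in each direction. ALB, albumin, and TTR were below the median on all arrays, whereas APOA1 was at or above it on all arrays.

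**Figure D5:**
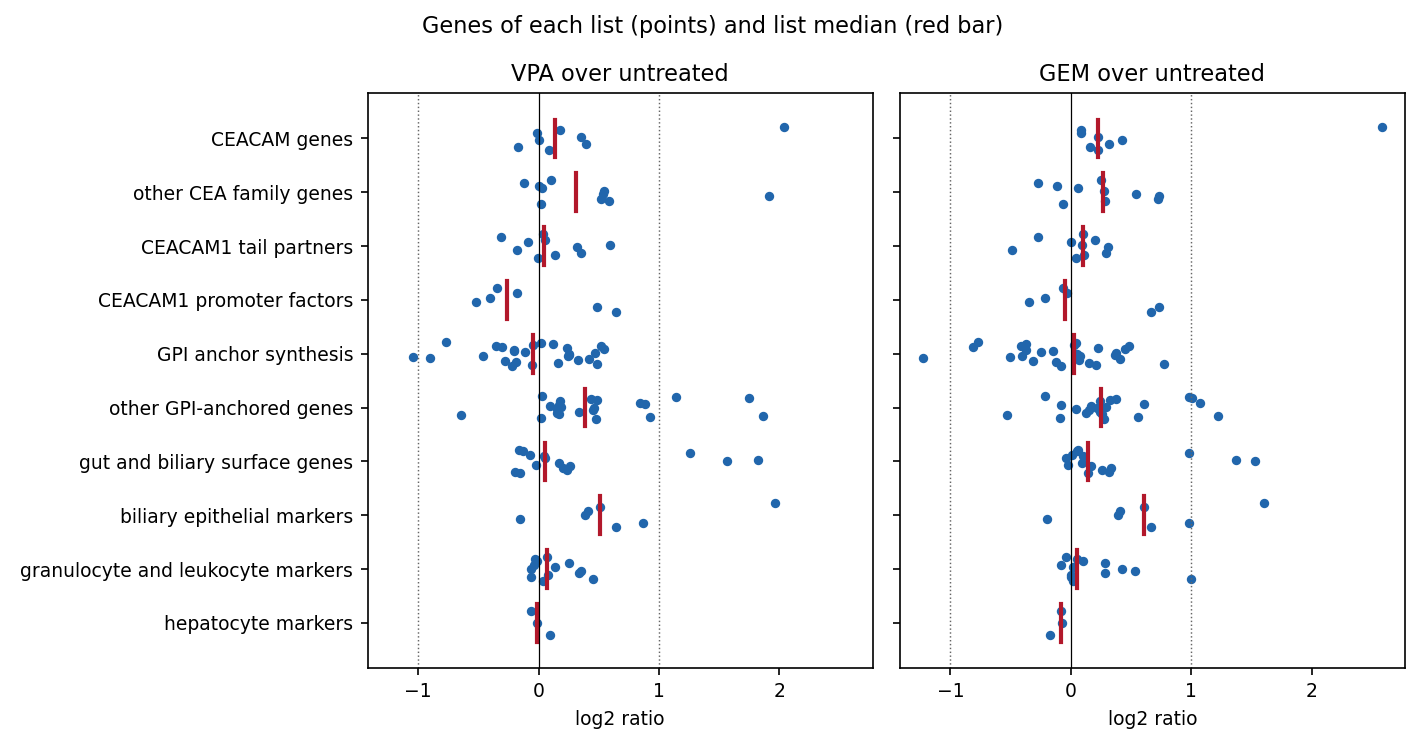
Log2 ratios of VPA over untreated and GEM over untreated for the genes of each list (points) with the list median (red bar) and dotted lines at the 2-fold limits. CEACAM1 is the isolated point of the CEACAM genes at 2.04 and 2.58, and the biliary markers have the highest medians, 0.51 with VPA and 0.61 with GEM.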

How the data were processed

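The deposited values were log2 intensities. The series' design text names GeneSpring GX 11.5, and RMA is named in the processing notes of the submitters. RMA corrects background, equalises the distributions of arrays and summarises probes, so low values are compressed. No label or header named a build for the rows. Of 28869 rows, the platform annotation gave 1 symbol to 19310, several to 1752 and none to 7807. Rows with 1 symbol were averaged per gene.

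With 1 array per condition, log2 ratios were computed and no test was made. The members and lists were chosen with earlier results of these data known. The named genes were all members, other family genes counted as different, up to 4 counted genes of each list by size, and the 10 genes nearest to CEACAM1. SOX9 is in 2 lists. Other genes named (CEACAM1 partners, promoter factors, other PSG genes, CDX genes, TSPAN8, neighbours, markers) were picked after their values were seen. The counting rule and the profile distance were checked on simulated data. Promoter windows came from RefSeq GRCh38.p14, and identity came from global alignment (match 1, mismatch -1, gap opening -2, gap extension -0.5). A planned comparison of proteins was not run. Alternatives covered array scaling, the level filter, the fold limit and the choice of rows. Software was Python 3.11.15, pandas 2.3.3, numpy 2.4.6, Biopython 1.88 and matplotlib 3.10.9.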

Additional observations from a re-analysis of the deposited data

Results flagged for a closer look

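CEACAM1 moved in opposite directions with each drug, depending on whether the other drug was present. Its log2 ratio with VPA was 2.04 in the pair of arrays without GEM and -2.70 in the pair with GEM. With GEM it was 2.58 without VPA and -2.15 with VPA. Each pair has 1 array per condition, so the difference was not tested. A swap of labels between arrays could not be checked from the files. A swap of a single drug array with the untreated or combination array would leave no reversal of 2-fold size for either drug. After some of these swaps, smaller changes with GEM would still differ in sign. Within either close pair, a swap would leave the reversal in place.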

How the results depend on the processing

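Over the 8 alternatives, the count of members past the fold limit in each of the 6 comparisons equalled the reported one in all 48 cases (1 with VPA or GEM over untreated and with the combination over either, 0 otherwise). CEACAM1 ranged from 1.99 to 2.05 for VPA over untreated, from 2.54 to 2.60 for GEM over untreated, from -2.16 to -2.10 for the combination over VPA and from -2.71 to -2.65 for the combination over GEM. Its departure from additivity ranged from -4.76 to -4.64. Only the centred and quantile scalings could move a log2 value of a member, since each member has 1 row. Under the other settings these values were fixed in advance. The member counts were also fixed under the row choices, and under the looser level filters, since no uncounted member ratio reached 2-fold. Values of the other 7 members moved by less than 0.147 in all 392 cases, most of which were so fixed. The signs that turned were those of CEACAM6 and CEACAM8 ratios under 0.1 in size. Of 432 list counts, 385 stayed within 1.5 times, and 36 of the 47 others came from a fold limit of 1.5 or 3. Scaling moved the median of all genes by at most 0.06. It moved the share that was higher among all genes past the limit from 47.6% to 38.7% (centred) or 58.4% (quantile) for VPA over untreated, and from 46.9% to 58.0% (centred) for the combination over VPA. No paired analysis was possible because each group has 1 array. Signal over background limits the GPI-anchored members and the low values of CEACAM1, since no detection calls were used.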
